A study of Mus musculus with 6 samples.

Results

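The Ms4a genes encode small proteins that cross the membrane with 4 helices, and in the mouse they lie side by side on chromosome 19. The best known, Ms4a1, encodes CD20, the surface protein of B cells. Ms4a2 encodes the beta chain of the high-affinity IgE receptor of mast cells and basophils. Most of the myeloid genes of the family have no settled function, although several of their products are known to sit beside other receptors and to shape how these signal. Results for 9 of them, Ms4a4a, Ms4a4b, Ms4a4c, Ms4a6b, Ms4a6c, Ms4a6d, Ms4a7, Ms4a8a and Ms4a3, are given here. They are 9 of the 19 Ms4a genes and of the 21780 genes in the table of counts.

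The myeloid genes were selected on their measured levels in this same experiment, the WGP against the PBS libraries, so no p is given for any of them, and where their calls are counted the counts describe them and support nothing. Wild-type C57BL/6J mice of both sexes, 6 to 8 weeks old, received PBS or 1 mg of whole glucan particles (WGP, yeast beta-glucan) into the peritoneum. After 7 days the pancreas was dissociated and viable cells carrying CD45 and CD11b were sorted for RNA sequencing, with 3 libraries for each group. Total counts were 35334645, 38419377 and 40580936 in PBS 1, 2 and 3 and 38240913, 43341834 and 41990018 in WGP 1, 2 and 3. The study states that its samples were separate mice from 1 experiment, so p values measure the spread between mice of that experiment. In bulk libraries fewer cells of a type and less RNA per cell cannot be told apart.

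The sort was checked on 8 genes of CD11b-positive myeloid cells, all of which were detected in every library. Levels are CPM (library-size-scaled counts), adjusted by the trimmed mean of M values (TMM), ± SD over 3 libraries. Lysozyme 2 (Lyz2) was the most abundant of these genes, at 7069 ± 1852 CPM with PBS and 16341 ± 627 CPM with WGP (n = 3). Itgam, the gene of CD11b itself, was at 228 ± 34.3 and 395 ± 20.3 CPM. Of the 8 genes 2 were called higher by edgeR, Lyz2 (adjusted p = 0.00351) and the oxidase gene Cybb (1046 ± 125 and 3229 ± 426 CPM, adjusted p = 0.000153 in edgeR), and the summed level was 10333, 16050 and 16631 CPM with PBS and 26386, 25852 and 26529 CPM with WGP. Genes of other cells were present as well. The summed level of 8 B cell genes was 2016 CPM in PBS 1, 535 in PBS 2 and 307 in PBS 3, against 136, 154 and 80.4 in the WGP libraries. The summed level of 11 acinar genes was 2393, 5741 and 1558 CPM with PBS and 433, 647 and 392 with WGP.

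PBS 1 stood apart from the other libraries of its group in these B cell genes and in its sex-linked counts. The Y-linked genes Ddx3y, Eif2s3y, Kdm5d and Uty had 8972 counts in PBS 2 and 10063 in PBS 3. They had 0 counts in PBS 1, WGP 1 and WGP 2 and 1 count in WGP 3. PBS 1 and the WGP libraries thus lacked these counts while PBS 2 and PBS 3 had them. Each library's value is given for every listed gene, so that PBS 1 can be set beside the WGP libraries.

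All 9 listed Ms4a genes passed the filter on low counts, and they made up a larger share of the counts with WGP. Their counts were 0.0584% of the total in PBS 1, 0.0799% in PBS 2 and 0.105% in PBS 3. In the WGP libraries this share was 0.156%, 0.168% and 0.184%, above every PBS library. The summed level was 788 ± 251 CPM with PBS and 1754 ± 139 CPM with WGP (n = 3), a ratio of 2.23.

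A gene was called when its adjusted p was at most 0.05 and its absolute log2 fold change at least 1 in edgeR's quasi-likelihood test over 14429 genes. Of the 9 listed genes 3 were called higher in the WGP libraries (4.53% of all genes tested were), namely Ms4a4c, Ms4a6c and Ms4a6d. None was called lower by edgeR (0 of 9, against 4.96% of all genes tested). At an unadjusted p below 0.05 edgeR had 2 of the 9 lower and 5 higher, with 3754 of the 14429 genes in either direction. DESeq2 called 4 of the 9 higher and 2 lower, and limma-voom 4 higher and 1 lower. Over all genes tested the genes called higher were 735 in DESeq2 and 679 in limma-voom, and the genes called lower 970 and 689. At the adjusted p alone 3 of the 9 were higher (7.54% of all genes) and 1, Ms4a7, was lower (6.81%). In 7 of the 9 genes the WGP libraries lay entirely above or below the PBS libraries (32.0% of all genes), 5 of them above and 2 below. The median log2 fold change was 1.012 over the 9 genes and -0.05 over all genes tested. Since the genes were chosen by this contrast, nothing is read from these counts.

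**Figure D1:**
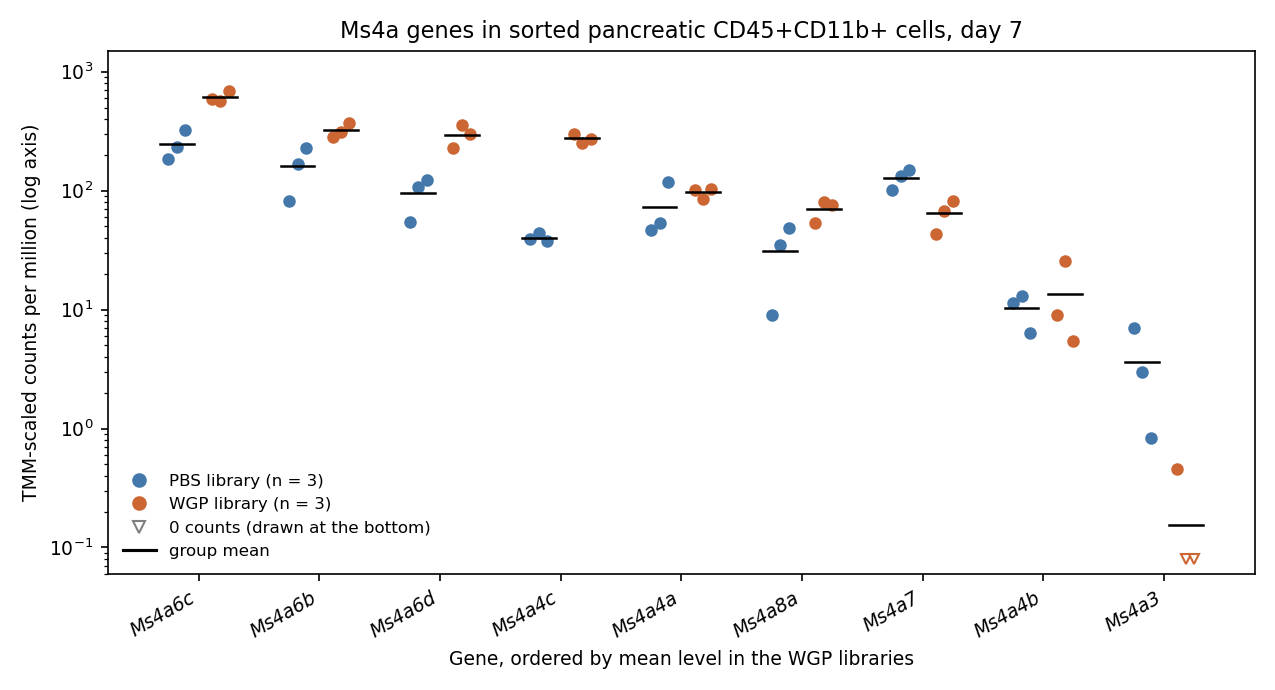
Level of each of the 9 listed Ms4a genes in TMM-scaled CPM on a log axis. Points are libraries (PBS blue, WGP orange, 3 each), black lines are group means and open triangles at the bottom stand for 0 counts. Ms4a4c, Ms4a6b, Ms4a6c, Ms4a6d and Ms4a8a lie higher in all WGP libraries, Ms4a7 and Ms4a3 lower, and Ms4a4a and Ms4a4b overlap.

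Within the Ms4a4 genes, Ms4a4c, a gene known to be inducible by interferon, differed most between the groups. Its level was 39.2, 43.9 and 37.9 CPM in PBS 1, 2 and 3, and 301, 252 and 274 CPM in WGP 1, 2 and 3. All WGP libraries were far above all PBS libraries, and both groups were tight, with no PBS library standing apart. The group means were 40.3 ± 3.14 and 276 ± 24.9 CPM (n = 3), 6.84 times higher with WGP. This was a log2 fold change of 2.77 (SE 0.15), and over the alternative settings it lay between 2.67 and 2.84.

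Ms4a4b, known from T cells, where its product associates with the costimulatory receptor GITR, is the closest relative of Ms4a4c. Its level was 11.4, 13.04 and 6.33 CPM with PBS and 9.04, 25.8 and 5.45 CPM with WGP. The groups overlapped, and WGP 2 was higher than the other libraries of either group. The log2 fold change of 0.39 (SE 0.55) was smaller than its error and became -0.50 without WGP replicate 2. The summed level of 9 T cell genes was also highest in WGP 2, at 62.0 CPM, against 23.7 and 22.1 in the other WGP libraries and 51.6, 46.3 and 40.3 with PBS. Of these T cell genes Cd4 was the most abundant, at 24.3 ± 5.29 CPM with PBS and 11.5 ± 5.32 CPM with WGP. Of the others Cd3d had 0 counts in PBS 1 and PBS 2, Cd3e in PBS 1, Cd6 in PBS 2, Bcl11b in PBS 3 and WGP 3, and Cd3g and Cd5 in WGP 3. Cd8a, at 0 counts in all PBS libraries and 244 in the WGP libraries, was at least 80.7-fold higher on a floor of 3 counts over the group and was the only T cell gene called (edgeR, adjusted p = 0.0393). That call was lost without any 1 library other than PBS replicate 1, and with the Y-linked covariate. The part of T cells in the level of Ms4a4b was not tested. The ratio of Ms4a4c to Ms4a4b was 3.44, 3.37 and 5.996 in the PBS libraries and 33.3, 9.75 and 50.4 in the WGP libraries.

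Ms4a4a encodes a macrophage protein that associates with the beta-glucan receptor Dectin-1. Its level was 46.8, 53.1 and 118 CPM with PBS and 101, 85.9 and 103 CPM with WGP. PBS 3 lay above all WGP libraries while PBS 1 and PBS 2 lay below them, so the groups overlapped. Its log2 fold change was 0.41 (SE 0.31). It moved to 0.95 without PBS replicate 3 and to 0.17 without PBS replicate 1. The ratio of Ms4a4c to Ms4a4a in CPM, with no correction for length, was 0.837, 0.826 and 0.321 in the PBS libraries and 2.98, 2.93 and 2.68 in the WGP libraries.

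The 3 Ms4a6 genes, relatives of human MS4A6A, were all higher in every WGP library than in any PBS library. Ms4a6c was the most abundant listed gene, with 186, 232 and 324 CPM in the PBS libraries and 594, 572 and 684 CPM in the WGP libraries. The lowest WGP library was well above the highest PBS library. Group means were 247 ± 70.3 and 617 ± 59.1 CPM (n = 3). On the log2 scale WGP was higher by 1.32 (SE 0.20).

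Ms4a6d, whose product is known to bind the complement receptor Vsig4, was at 54.2, 108 and 123 CPM with PBS. In the WGP libraries it was at 227, 359.6 and 300.0 CPM. The groups did not overlap, with PBS 1 and WGP 1 the lowest of their groups. Its log2 fold change of 1.64 (SE 0.29) was the second in size among the listed genes that were higher. Ms4a6b, like Ms4a4b found with GITR in T cells, was at 82.6, 166 and 230.1 CPM with PBS and 284, 313 and 368 CPM with WGP. The groups did not overlap, and PBS 1 was again the lowest library. The log2 fold change of Ms4a6b was 1.012 (SE 0.30), with 0.70 without PBS replicate 1 and 1.37 without PBS replicate 3. Ms4a6b was not called by edgeR, but was by DESeq2, by limma-voom, by edgeR without PBS replicate 3, under 2 other count filters and with a Y-linked covariate described below.

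Ms4a8a, known from alternatively activated and tumor-associated macrophages, spread most among the PBS libraries of the genes that were higher. Its level was 9.03, 35.2 and 48.3 CPM with PBS and 53.8, 80.4 and 75.7 CPM with WGP. PBS 3 and WGP 1 were close, while PBS 1 was 5.35 times below PBS 3. The log2 fold change was 1.18 (SE 0.47) and 0.75 without PBS replicate 1. Ms4a8a was not called by edgeR, but was with a Y-linked covariate described below.

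PBS 1 was the lowest PBS library in 6 of the 9 listed genes (66.7%), against 6311 of the 14429 genes tested (43.7%). These were Ms4a4a, Ms4a6b, Ms4a6c, Ms4a6d, Ms4a7 and Ms4a8a. In a fit with a Y-linked covariate (whether a library has such counts) the contrast rests on PBS 1 against the WGP libraries. The log2 fold changes were then 1.96 for Ms4a6b, 1.73 for Ms4a6c, 2.45 for Ms4a6d and 2.95 for Ms4a8a. The covariate left Ms4a4c at 2.82, moved Ms4a4a to 1.05 and moved Ms4a7 to -0.65.

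Genes of Ly6C-high monocytes were measured beside these genes. Of 8 such genes 5 rose and 1 fell in edgeR's calls, and 6 had all WGP above all PBS libraries. Their summed level was 2671, 3687 and 4232 CPM with PBS and 4427, 3865 and 4439 CPM with WGP. The most abundant, F13a1, fell from 2513 ± 1085 to 424 ± 78.0 CPM (n = 3, adjusted p = 0.000411 in edgeR), a log2 fold change of -2.57 that was -1.66 with the Y-linked covariate. The chemokine receptor gene Ccr2 rose from 333 ± 96.6 to 1315 ± 226 CPM (n = 3, adjusted p = 0.000349 in edgeR). The matrix gene Vcan rose from 11.8 ± 2.63 to 174 ± 71.1 CPM (n = 3, adjusted p = 2.65e-05 in edgeR). No gene of the list was at 0. Whether a change in monocytes had a part in the higher levels of Ms4a4c, Ms4a6b, Ms4a6c, Ms4a6d and Ms4a8a was not tested.

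Ms4a7, known from tissue macrophages such as those at the borders of the brain, was the abundant listed gene with the opposite direction. Its level was 101, 134 and 150.1 CPM with PBS and 42.96, 67.8 and 82.5 CPM with WGP. Every WGP library was below every PBS library, with WGP 3 the nearest to PBS 1. Means were 128 ± 25.1 and 64.4 ± 19.98 CPM (n = 3). The log2 fold change of -0.99 (SE 0.24) lay just short of the threshold for a call. The ratio of Ms4a6c to Ms4a7 was between 1.74 and 2.16 in the PBS libraries and between 8.29 and 13.8 in the WGP libraries.

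Genes of resident macrophages were lower alongside Ms4a7. Of 12 such genes 9 fell in edgeR's calls, and 10 had all WGP below all PBS libraries. Their summed level was 9839, 16894 and 20161 CPM with PBS and 3970, 6063 and 5423 CPM with WGP. The complement gene C1qa was the most abundant, at 2859 ± 799.6 CPM with PBS and 1128 ± 302 CPM with WGP (n = 3, adjusted p = 0.00578 in edgeR). With the Y-linked covariate C1qa had a log2 fold change of -0.82 and was no longer called. The smallest p values belonged to Folr2, Cd163 and Timd4. The folate receptor gene Folr2 fell from 762 ± 256 to 59.6 ± 22.1 CPM (adjusted p = 6.68e-05 in edgeR), and the phagocytic receptor gene Timd4 from 239 ± 94.1 to 20.4 ± 8.70 CPM (adjusted p = 0.000165 in edgeR). With the Y-linked covariate their log2 fold changes went from -3.67 to -3.01 and from -3.55 to -2.68. No gene of the list was at 0. The part of resident macrophages in the level of Ms4a7 was not tested.

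Ms4a3, a gene that marks granulocyte-monocyte progenitors, was the least abundant in the WGP libraries. It had 270, 117 and 34 counts in PBS 1, 2 and 3 and 17, 0 and 0 counts in WGP 1, 2 and 3. These were 7.02, 3.00 and 0.831 CPM with PBS and 0.461 CPM in WGP 1. All WGP libraries were below all PBS libraries, but WGP 1 and PBS 3 were near each other and PBS 1 held most of the PBS counts. The log2 fold change was -4.54 (SE 1.96), with 421 counts over the PBS and 17 over the WGP libraries, and the gene was not called by edgeR. DESeq2 called it lower. Without PBS replicate 1 the value was -3.62. Without WGP replicate 1 it was called lower, with a fitted value of -10.18 that is no measure of size because the other WGP libraries had 0 counts.

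Other genes of granulocyte-monocyte progenitors were also highest in PBS 1 among the PBS libraries. The summed level of 7 such genes was 384, 53.5 and 19.8 CPM in PBS 1, 2 and 3, and 24.3, 70.9 and 18.7 CPM with WGP. The most abundant, the myeloperoxidase gene Mpo, was at 83.4 ± 113 CPM with PBS and 1.62 ± 0.648 CPM with WGP (n = 3, adjusted p = 0.00490 in edgeR). Its log2 fold change was -5.68, and -3.51 without PBS replicate 1 and -7.03 with the Y-linked covariate, and limma-voom did not call it. The elastase gene Elane was at 24.2 ± 31.4 and 2.18 ± 1.09 CPM (adjusted p = 0.0357 in edgeR), with overlapping groups. This call was lost without PBS replicate 1, where the log2 fold change went from -3.47 to -1.50, without WGP replicate 1 or WGP replicate 3, in limma-voom and with the filterByExpr filter of edgeR. With the Y-linked covariate it was -4.79. No other gene of the list was called, Ctsg had 0 counts in PBS 2, WGP 1 and WGP 3, and Gfi1 had 0 in PBS 3. The part of progenitors, and of PBS 1 alone, in the level of Ms4a3 was not tested.

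To compare levels between genes, CPM were divided by the length of each gene's exons in kilobases (kb). With PBS the order was Ms4a6c (121 ± 34.3 CPM per kb), Ms4a4a (87.0 ± 47.4), Ms4a6d (54.7 ± 20.7), Ms4a6b (35.6 ± 16.5), Ms4a7 (28.8 ± 5.63), Ms4a4c (23.0 ± 1.80), Ms4a8a (17.2 ± 11.1), Ms4a3 (1.92 ± 1.67) and Ms4a4b (1.17 ± 0.398). Only Ms4a8a and Ms4a3 were neighbours in this order whose libraries did not overlap. Within each PBS library, however, Ms4a6c was above Ms4a4a, Ms4a4a above Ms4a6d, Ms4a6d above Ms4a6b, and Ms4a7 above Ms4a4c.

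With WGP the order was Ms4a6c (301 ± 28.8 CPM per kb), Ms4a6d (170.3 ± 38.3), Ms4a4c (157 ± 14.2), Ms4a4a (115 ± 11.1), Ms4a6b (71.8 ± 9.46), Ms4a8a (39.0 ± 7.91), Ms4a7 (14.5 ± 4.49), Ms4a4b (1.53 ± 1.24) and Ms4a3 (0.0816 ± 0.141). Here only Ms4a6d and Ms4a4c overlapped, and every other pair of neighbours was separated. Ms4a4c moved from rank 6 to rank 3 and Ms4a7 from rank 5 to rank 7. With coding length in place of exon length Ms4a6c stayed first in both groups, and with WGP Ms4a6b took rank 2, Ms4a6d rank 4 and Ms4a4a rank 5. With PBS coding length put Ms4a6b at rank 2, Ms4a7 at rank 3, Ms4a6d at rank 4 and Ms4a4a at rank 5, so these ranks depend on the length used.

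As a share of the 9 genes' summed CPM per kb, Ms4a6c was nearly the same in both groups, at 33.1 ± 2.58% with PBS and 34.5 ± 1.98% with WGP. Ms4a4c took 6.76 ± 2.32% with PBS and 18.2 ± 2.49% with WGP, with no overlap. Ms4a7 took 8.06 ± 1.22% and 1.64 ± 0.419%, again with no overlap. Ms4a4a took 22.8 ± 5.05% and 13.3 ± 1.47%, and its lowest PBS library (17.96%) was above its highest WGP library (14.8%). Ms4a6d (14.7 ± 2.65% and 19.5 ± 4.05%) and Ms4a6b (9.32 ± 1.73% and 8.22 ± 0.553%) overlapped. The share of Ms4a4c was thus larger with WGP and those of Ms4a4a and Ms4a7 smaller. The level of Ms4a4a itself was not lower with WGP (72.7 and 96.5 CPM, log2 fold change 0.41). These shares use exon length, and the ranks above changed with coding length.

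**Figure D2:**
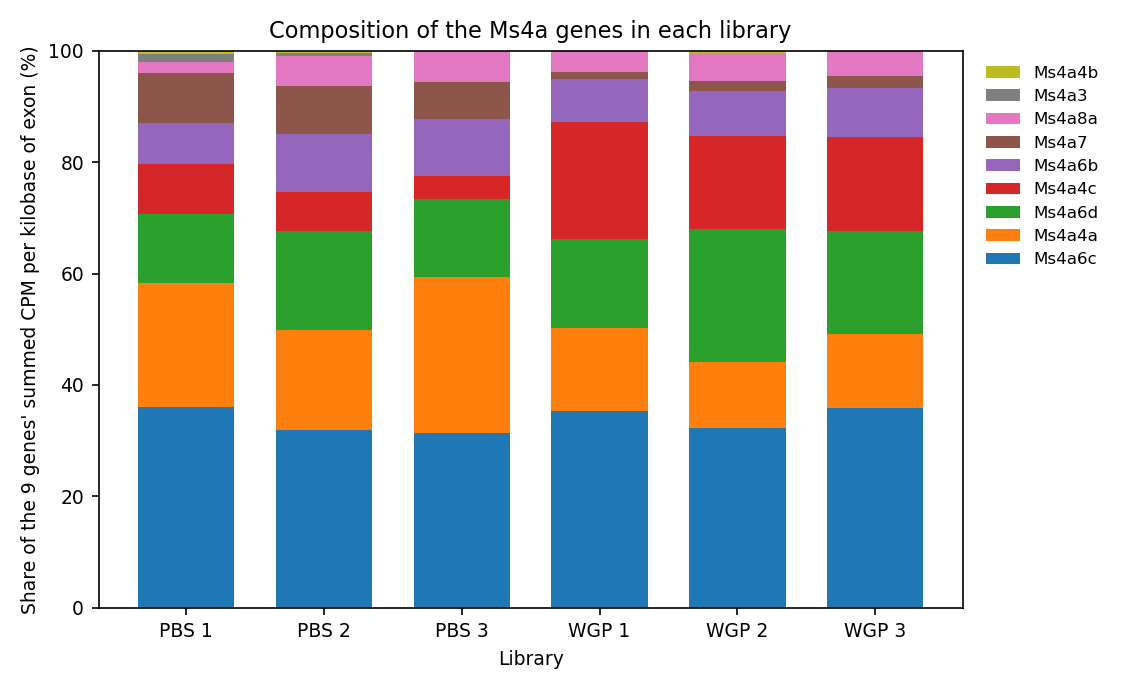
Share of each listed Ms4a gene in the summed CPM per kilobase of exon of the 9 genes, in percent, stacked for each of the 6 libraries. The share of Ms4a4c (red) is between 16.6 and 21.0% in the WGP libraries and between 4.29 and 8.90% in the PBS libraries, and that of Ms4a7 (brown) is smaller with WGP.

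All 19 Ms4a genes lie within 678.6 kilobases of chromosome 19 in GRCm38, chr19:10962293-11640851. The listed genes run from Ms4a8a (chr19:11067471-11081102) to Ms4a3 (chr19:11629496-11640851). Ms4a7 (chr19:11321039-11336146) and Ms4a6d (chr19:11586604-11604849) are on the minus strand, as are Ms4a8a and Ms4a3. A block of 5 listed genes lies between them on the plus strand, in the order Ms4a4a, Ms4a4c, Ms4a4b, Ms4a6c and Ms4a6b. Ms4a4c (chr19:11404770-11427246) and Ms4a4b (chr19:11443553-11467055) are neighbours there, yet only Ms4a4c had groups that did not overlap. The listed genes lower in every WGP library, Ms4a7 and Ms4a3, were not neighbours, and Ms4a3 lies at the end of the cluster next to Ms4a2.

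**Figure D3:**
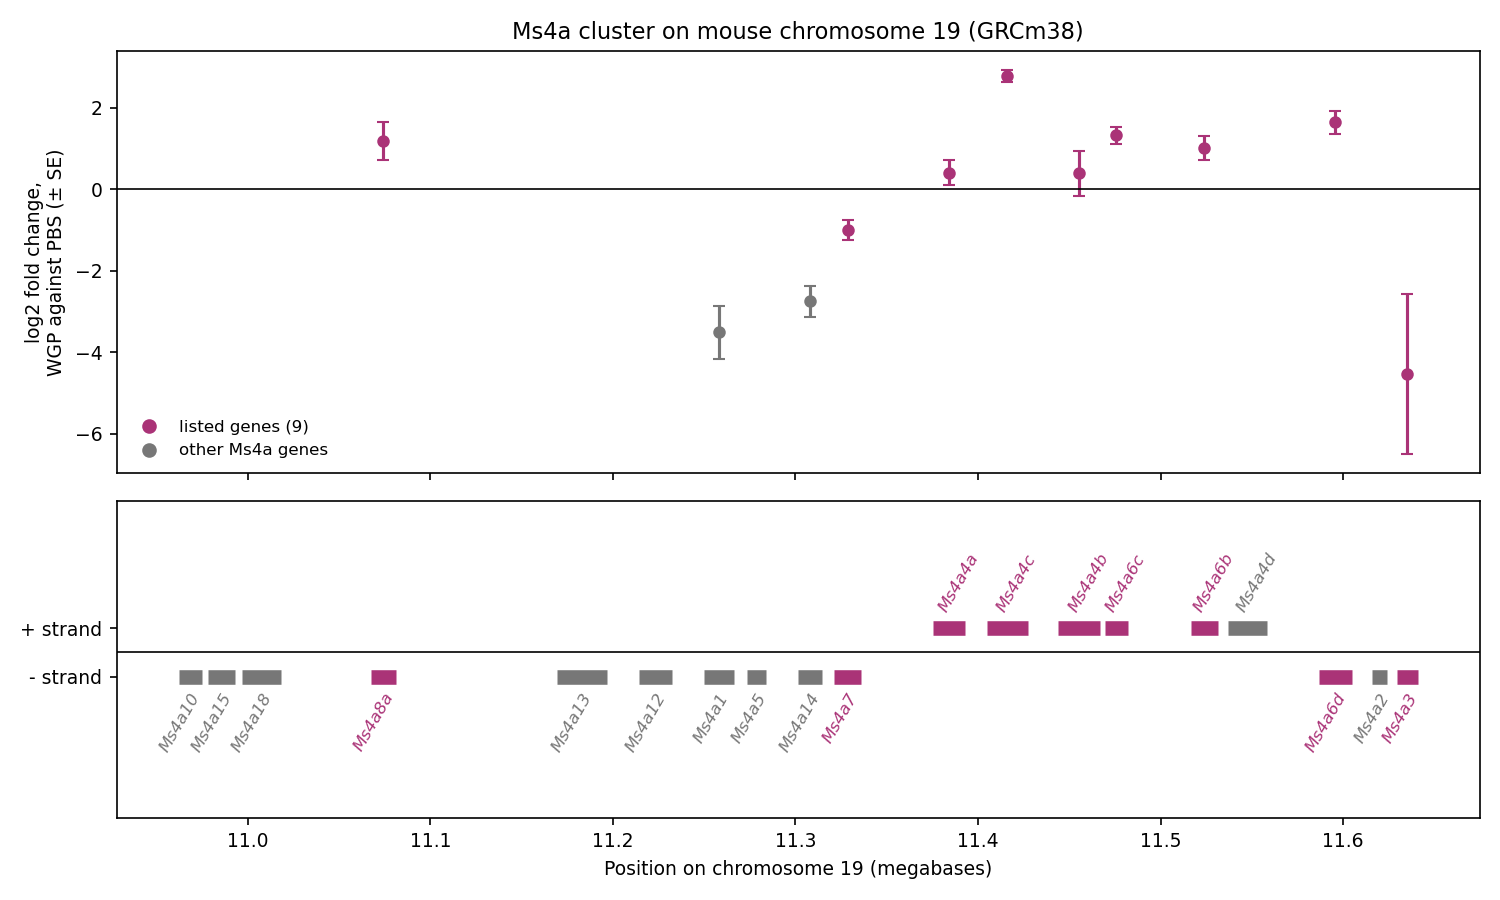
Lower panel, the 19 Ms4a genes to scale on chromosome 19 of GRCm38 by strand, listed genes in purple and others in grey. Upper panel, log2 fold change of WGP against PBS with its SE for the 9 listed genes, Ms4a1 and Ms4a14. Ms4a4c has the highest value (2.77), and Ms4a3 the lowest (-4.54) with the widest error. Other Ms4a genes with few or no counts are not drawn above.

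Of the 10 other Ms4a genes, taken by symbol, 5 had counts, and 2 of these, Ms4a1 and Ms4a14, fell in edgeR's calls. Ms4a1, the CD20 gene, was at 668, 162 and 97.4 CPM in PBS 1, 2 and 3 and at 30.2, 36.0 and 15.6 CPM with WGP. PBS 1 was far above all other libraries, and all WGP libraries were below all PBS libraries. Its log2 fold change was -3.50 (SE 0.65, adjusted p = 0.00485 in edgeR), and -2.25 without PBS replicate 1, where it was still called. Of 8 B cell genes 7 fell in edgeR's calls, all with WGP below PBS libraries and none at 0. Cd79a was the most abundant, at a log2 fold change of -3.28 (adjusted p = 0.00559 in edgeR), and of -2.005 without PBS replicate 1. Ebf1 and Cd79b had log2 fold changes of -3.02 and -2.78 (adjusted p = 0.00827 and 0.00916 in edgeR), and were at -2.14 and -1.63 without PBS replicate 1. Limma-voom did not call Ebf1. With the Y-linked covariate Ms4a1, Cd79a, Ebf1 and Cd79b were at -4.61, -4.40, -3.95 and -3.85. The part of B cells in the level of Ms4a1 was not tested.

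Ms4a14, next to Ms4a7, was at 96.1, 104 and 98.9 CPM with PBS and at 12.9, 6.92 and 24.6 CPM with WGP. It fell by 2.75 on the log2 scale (SE 0.38, adjusted p = 0.000845 in edgeR), with little spread among the PBS libraries. Ms4a15 had 50, 13 and 0 counts in PBS 1, 2 and 3 and 0 in the WGP libraries, and was not called. Ms4a2 had 40 counts, all in PBS 1, and was not called either. The mast cell and basophil genes Cpa3 and Mcpt4 had 0 counts in every library. Of 7 mast cell and basophil genes tested 1, Kit, was called, 2 had positive and 5 negative log2 fold changes, and the median was -2.69. The 5 had few counts, the most being 430 for Mcpt8 over the PBS libraries against 0 with WGP, and this gene was named after its values were seen. The summed level of the list was 212, 179.6 and 148 CPM with PBS and 446, 281 and 337 CPM with WGP. The most abundant, and most of this sum, was Hdc, at 159.5 ± 23.6 CPM with PBS and 314 ± 75.9 CPM with WGP (log2 fold change 0.98, adjusted p = 0.00740 in edgeR), which did not pass with the Y-linked covariate.

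Ms4a4d lies between Ms4a6b and Ms4a6d and had 107, 57 and 14 counts with PBS and 0, 191 and 1 with WGP. Nearly all of its WGP counts were in WGP 2, the library in which Ms4a4b was highest. Ms4a10, Ms4a12, Ms4a13, Ms4a18 and Ms4a5 had 0 counts in every library. The related genes Tmem176a and Tmem176b on chromosome 6 were both lower with WGP. Tmem176b fell from 721 ± 173 to 324 ± 47.1 CPM (log2 fold change -1.16, SE 0.20, adjusted p = 0.00368 in edgeR). Tmem176a went from 367 ± 77.1 to 183 ± 28.4 CPM (log2 fold change -0.999, adjusted p = 0.00585 in edgeR) and passed the adjusted p alone. With the Y-linked covariate Tmem176b was at -0.70 and no longer called, and Tmem176a was at -0.60 and no longer passed the adjusted p.

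Of 23 genes around the cluster, 10 on each side of it and 3 within it, taken by position, 13 were tested and 2 were called, both higher (4.53% of all genes tested were). Slc15a3, a transporter of histidine and small peptides, rose from 142 ± 19.4 to 496 ± 82.8 CPM (log2 fold change 1.80, adjusted p = 0.000110 in edgeR). Stx3, a syntaxin of membrane fusion, rose from 15.7 ± 4.35 to 47.6 ± 6.23 CPM (log2 fold change 1.60, adjusted p = 0.00173 in edgeR). The median log2 fold change of the 13 genes was -0.18.

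Genes of proteins known to work with MS4A proteins, or found in the same macrophages, were taken from a list made for this purpose. Of those described 4, Vsig4, Cd163, Mrc1 and Stab1, were called lower. Clec7a, the gene of Dectin-1, the partner of Ms4a4a, was not analysed here. Vsig4, whose product binds that of Ms4a6d, was at 25.9, 42.4 and 86.2 CPM with PBS and at 0, 1.69 and 1.83 CPM with WGP. It fell by 5.44 on the log2 scale (SE 0.95, adjusted p = 0.00350 in edgeR), while its partner Ms4a6d was higher in every WGP library. Limma-voom did not call Vsig4, which was at -4.45 with the Y-linked covariate.

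The signalling partners differed less. Trem2, a lipid receptor of macrophages whose soluble form is linked to the human MS4A locus, was at 51.5 ± 10.9 CPM with PBS and 90.4 ± 26.9 CPM with WGP (n = 3). Its log2 fold change of 0.81 did not pass the adjusted p (0.0546 in edgeR). In DESeq2 it passed the adjusted p alone, and it was called higher, at 1.04, when WGP replicate 1 was left out. The adaptor genes Fcer1g and Tyrobp and the kinase gene Lyn had log2 fold changes of 0.59, 0.53 and 0.46 (adjusted p = 0.0250, 0.0435 and 0.0397 in edgeR). All WGP libraries were above all PBS libraries in these 3 genes. Fcer1g lost its adjusted p without PBS replicate 2, WGP replicate 1 or WGP replicate 3, Lyn without any 1 library other than PBS replicate 1, and Tyrobp without any 1 of the 6 libraries. Lyn and Tyrobp also lost it with upper-quartile scaling or library totals, and Lyn with the Y-linked covariate. Kit, the stem cell factor receptor of mast cells, rose from 12.0 ± 4.23 to 39.6 ± 7.25 CPM (log2 fold change 1.72, adjusted p = 0.00316 in edgeR). It missed the adjusted p with the Y-linked covariate.

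Tnfrsf18, the gene of GITR, was at 12.1, 4.70 and 2.08 CPM with PBS and at 6.08, 5.47 and 7.57 CPM with WGP. Its log2 fold change of 0.02 (SE 0.64) was 0.91 without PBS replicate 1 and -0.92 with the Y-linked covariate, so its direction is not settled. Nlrp3, Syk, Cdk2 and Cdkn3 had log2 fold changes of 0.45, 0.15, -0.40 and -1.63 and did not pass in edgeR. Nlrp3 passed the adjusted p alone under an alternative setting. Fcer1a had 46 counts, all in PBS 1. The scavenger receptor genes Cd163, Mrc1 and Stab1 fell, with log2 fold changes of -4.50, -2.91 and -2.62 (adjusted p = 0.000153, 0.000165 and 0.000271 in edgeR). With the Y-linked covariate these were -3.38, -1.96 and -1.88. Ms4a7 was thus lower with WGP alongside Cd163, Mrc1 and Stab1.

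The profile of the most abundant listed gene in each direction was compared with all genes tested, by the Euclidean distance between log2 CPM over the 6 libraries, each centred on its mean. Nearest to Ms4a6c were Sestd1, Cd300c2, Pirb, Tmem51 and Slc36a1, at distances of 0.264, 0.313, 0.322, 0.339 and 0.350. Their log2 fold changes, which the choice by likeness to Ms4a6c fixes in direction, lay between 1.12 (Tmem51) and 1.54 (Pirb). All 5 were called higher, and Tmem51 was below the fold threshold without PBS replicate 1. Nearest to Ms4a7 were Oas1c, AW554918, Snx8, Ccp110 and Otud7b, at distances of 0.336, 0.364, 0.377, 0.381 and 0.386. Of these only Snx8 was called (log2 fold change -1.09), and it was short of the fold threshold without PBS replicate 3 or WGP replicate 1 and with the Y-linked covariate. Otud7b, Oas1c, Ccp110 and AW554918 lay between -0.98 and -0.83. Of these 4 only Otud7b passed the adjusted p (0.0250 in edgeR). It was at -1.13 without WGP replicate 3. Otud7b kept its adjusted p in 13 of 17 alternative fits, and the Y-linked covariate was among those in which it did not pass.

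Listed genes with similar sequences can share reads, so their coding sequences were aligned. Ms4a4b and Ms4a4c were identical at 91.8% of aligned positions, the closest pair of the 19 genes. Ms4a6b and Ms4a6d were identical at 80.2% and Ms4a6b and Ms4a6c at 74.6%. Ms4a4a was at 59.9% with Ms4a4c, and Ms4a7, Ms4a8a and Ms4a3 were at most 52.1% identical with any other Ms4a gene. The first 75 coding bases, 1 read length of the study, of Ms4a4b, Ms4a4c and their unlisted relative Ms4a4d and of the 3 Ms4a6 genes are shown because they carry the differences that tell reads of these genes apart. Capitals mark positions where the 3 genes of a group differ, 9 among Ms4a4b, Ms4a4c and Ms4a4d and 14 among the Ms4a6 genes. Ms4a4a, which is less alike, is not in the first group.
Ms4a4b: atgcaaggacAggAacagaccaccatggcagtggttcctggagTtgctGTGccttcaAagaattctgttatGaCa
Ms4a4c: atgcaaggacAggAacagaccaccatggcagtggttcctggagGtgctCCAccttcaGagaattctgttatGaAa
Ms4a4d: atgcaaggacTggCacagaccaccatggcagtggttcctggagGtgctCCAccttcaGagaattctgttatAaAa
Ms4a6b: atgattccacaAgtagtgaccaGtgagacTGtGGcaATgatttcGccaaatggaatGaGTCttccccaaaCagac
Ms4a6c: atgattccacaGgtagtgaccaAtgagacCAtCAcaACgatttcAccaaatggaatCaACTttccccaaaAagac
Ms4a6d: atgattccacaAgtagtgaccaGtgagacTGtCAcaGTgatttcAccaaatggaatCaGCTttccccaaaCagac

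Few stretches of a whole read length were shared between genes. Of the 75-base words in the transcripts of Ms4a4c 3.78% were also found in Ms4a4b, and of those of Ms4a4b 1.18% in Ms4a4c or Ms4a2. For Ms4a6c this share was 2.88%, for Ms4a6b 0.632% and for Ms4a6d 0.408%. For Ms4a4a, Ms4a7, Ms4a8a and Ms4a3 it was 0. Reads from the shared stretches are uncertain between these genes. Ms4a6c, Ms4a6b and Ms4a4c also overlap a gene on the other strand that was not analysed here (BE692007, Gm19261 and Gm5692), and as the strand setting of the counting is not given in the sources used here, reads of such pairs cannot be told apart.

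Promoters from 250 bases before to 50 bases after the start were matched in RefSeq (GRCm38.p6) for 8 of the 9 listed genes, with Ms4a6d the other. Identity between promoters was taken over all columns of an end-to-end alignment, where gaps count as differences. It was 72.1% for Ms4a4b and Ms4a4c (230 of 319 columns) and 51.2% for Ms4a6b and Ms4a6c (192 of 375 columns). All other pairs were at most 50.7% on this measure. The windows are 300 bases each, so many of the 375 columns of Ms4a6b and Ms4a6c are gaps. For this pair the measure understates the likeness of the bases that were aligned. The letters GAGGAA (the core of sites for the myeloid factor PU.1), searched on both strands as were all motifs, were found in Ms4a4b, Ms4a4c, Ms4a7 and Ms4a3, and in 28.3% of all 32851 promoters. The letters GAAANNGAA (the core of the interferon-stimulated response element) were found in Ms4a6b, Ms4a6c and both promoters of Ms4a7, and in 8.56% of all promoters. TGANTCA (AP-1) was found in Ms4a4b, Ms4a8a and a second promoter of Ms4a7, and in 7.81% of all promoters. TTGCNNAA (C/EBP) was found in Ms4a3 only, directly after its GAGGAA match, and in 10.8% of all promoters. TTCNNNGAA (STAT) was found in none of these windows and in 8.30% of all promoters. None of the motifs was found in Ms4a4a.

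The promoters of Ms4a4b (chr19:11443308-11443607) and Ms4a4c (chr19:11407411-11407710), both on the plus strand of GRCm38.p6, are shown because the pair is so similar in sequence while only Ms4a4c was higher in every WGP library. Capitals mark GAGGAA, at -64 from the start in Ms4a4b and at -61 in Ms4a4c, and TGAATCA in Ms4a4b, which begins at base 23 after the start.
Ms4a4b: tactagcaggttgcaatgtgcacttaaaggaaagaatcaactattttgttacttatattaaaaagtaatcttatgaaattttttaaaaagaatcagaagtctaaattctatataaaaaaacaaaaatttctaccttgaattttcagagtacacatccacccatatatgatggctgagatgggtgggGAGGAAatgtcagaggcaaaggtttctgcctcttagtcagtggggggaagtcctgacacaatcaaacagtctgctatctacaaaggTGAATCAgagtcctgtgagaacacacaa
Ms4a4c: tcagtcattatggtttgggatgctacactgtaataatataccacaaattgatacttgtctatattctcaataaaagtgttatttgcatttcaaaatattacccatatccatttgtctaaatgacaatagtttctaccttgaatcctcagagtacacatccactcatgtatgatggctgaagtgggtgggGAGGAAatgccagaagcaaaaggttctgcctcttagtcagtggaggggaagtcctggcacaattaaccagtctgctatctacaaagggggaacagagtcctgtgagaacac

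The promoters of Ms4a6b (chr19:11518309-11518608) and Ms4a6c (chr19:11469118-11469417), also on the plus strand of GRCm38.p6, are shown because both genes were higher in every WGP library and hold the same match. Capitals mark GAAAGTGAA, at -206 from the start in Ms4a6b and at -133 in Ms4a6c. A match describes the letters in this window and not a bound site.
Ms4a6b: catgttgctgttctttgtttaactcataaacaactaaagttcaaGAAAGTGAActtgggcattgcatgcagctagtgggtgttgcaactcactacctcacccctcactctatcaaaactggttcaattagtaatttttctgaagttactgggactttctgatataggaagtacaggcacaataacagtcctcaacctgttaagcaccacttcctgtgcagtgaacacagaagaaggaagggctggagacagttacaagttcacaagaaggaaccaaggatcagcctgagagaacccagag
Ms4a6c: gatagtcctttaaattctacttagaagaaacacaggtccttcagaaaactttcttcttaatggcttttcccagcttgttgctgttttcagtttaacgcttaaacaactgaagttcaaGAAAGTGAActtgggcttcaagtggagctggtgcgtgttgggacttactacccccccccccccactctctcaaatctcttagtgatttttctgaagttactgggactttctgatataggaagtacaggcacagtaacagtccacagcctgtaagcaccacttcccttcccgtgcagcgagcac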

How the data were processed

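The authors aligned 75-base single-end reads to mm10 (GRCm38.p6) with STAR 2.6 and counted them with HTSeq 0.10.0, and the deposited raw counts were used as they stand. Symbols were mapped with GENCODE vM21. Protein-coding genes with at least 10 size-factor-normalized counts summed over the 6 libraries were tested, 14429 in all, in edgeR 4.0.16 (quasi-likelihood, TMM; R 4.3.3), with p adjusted by Benjamini-Hochberg. Genes were called at an adjusted p up to 0.05 if they also differed by 1 or more on the log2 scale, in either direction. The code was tested on simulated data. DESeq2 1.42.0, limma-voom (limma 3.58.1), other scalings and filters, a replicate block, a Y-linked covariate and leaving out each library were tried. Sequences were handled with Biopython 1.88. Folds against a group at 0 use a floor of 3 counts over the group, which covers counting error only.

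Genes named are the 9 listed, other Ms4a genes with counts, Tmem176a and Tmem176b, partners of MS4A proteins, neighbours past the adjusted p, up to 3 genes past it with the smallest p and the most abundant of each marker list, and the 5 nearest profiles of Ms4a6c and Ms4a7. Further marker genes are named only for their 0 counts. The members and lists were chosen with earlier results of these data known.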

Additional observations from a re-analysis of the deposited data

How the results depend on the processing

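Ms4a4c, Ms4a6c and Ms4a6d were called higher under all 18 alternatives, which supports nothing, since the genes were chosen on this contrast in the same libraries. The count of listed genes called higher was 5 with a replicate block and 5 with the Y-linked covariate, in place of 3, both with Ms4a6b and Ms4a8a, and 4, with Ms4a6b, in DESeq2, limma-voom, at least 1 count in any library, at least 10 counts in every library and without PBS replicate 3. Over all 14429 genes tested 655 were called higher with the block and 741 with the covariate, and 686 and 677 lower. Across all alternatives the genes called higher were between 554 and 1088, and those called lower between 554 and 983. The block fits the replicate number, which does not pair the samples (r of 0.003, -0.045 and 0.011 between libraries of the same number). With this block Cd8a, Elane, Ear2, Lyn and Tyrobp no longer passed, and Trem2 passed the adjusted p. The count called lower was 1, in place of 0, with library totals, limma-voom, RLE size factors, upper-quartile scaling, at least 10 counts in every library, the replicate block and the adjusted p alone, and 2 in DESeq2. It lay between 0 and 1 when each library was left out. The listed gene called lower was Ms4a7, which lay near the fold threshold, in all of these except without WGP replicate 1, where it was Ms4a3, and DESeq2, which called both. Library totals moved the median log2 fold change of all genes by -0.10. Over all genes 1088 were higher at the adjusted p alone, where no fold is asked, against 653. Otherwise the cause of these differences was not tested. Ms4a3 was not tested with at least 10 counts in every library. At 3 libraries a group and fewer than 20 counts over the WGP libraries, the size of the difference in Ms4a3 is the least certain of the listed genes.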

Other observations

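Further lists of cell markers, each measured in the same libraries, are given by value. Of 9 neutrophil genes 1 rose and 1 fell in edgeR's calls, and the summed level was 4852, 2954 and 2066 CPM with PBS and 2444, 2321 and 2430.2 CPM with WGP. The protease gene Mmp9 fell from 584 ± 101 to 219 ± 69.2 CPM (log2 fold change -1.41, adjusted p = 0.00249 in edgeR). The chemokine receptor gene Cxcr2 rose from 42.7 ± 13.1 to 105 ± 2.43 CPM (log2 fold change 1.30, adjusted p = 0.00320 in edgeR) and lost its call with the Y-linked covariate. Csf3r passed the adjusted p alone (log2 fold change 0.81, adjusted p = 0.00925 in edgeR), but not with the Y-linked covariate. The most abundant, S100a9, had a log2 fold change of -0.77 (adjusted p = 0.249 in edgeR) and -0.10 without PBS replicate 1, and it was called lower without PBS replicate 3 (-1.13) and with the covariate (-1.58).

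Of 8 eosinophil genes 1, Ear2, was called lower (log2 fold change -1.23, adjusted p = 0.0487 in edgeR), a call lost without PBS replicate 2, PBS replicate 3, WGP replicate 2 or WGP replicate 3, in limma-voom, with the filterByExpr filter of edgeR and with the covariate. The summed level was 109.96, 75.8 and 73.8 CPM with PBS and 88.3, 34.0 and 34.6 CPM with WGP. The 8 eosinophil genes had 2 positive and 6 negative log2 fold changes. The positive ones were Ccr3 (1.83), with all WGP libraries above all PBS libraries, and Siglecf (0.78), neither of them called. Of 8 NK cell genes Klrk1 rose (log2 fold change 1.44, adjusted p = 0.00628 in edgeR) and Gzma, the most abundant, fell (-1.81, adjusted p = 0.0187 in edgeR), and Gzma lost its call without PBS replicate 2, WGP replicate 1 or WGP replicate 3 and in limma-voom, and was at -1.19 without PBS replicate 1. Klrk1 lost it with the covariate. Their summed level was 229, 124 and 60.5 CPM with PBS and 102, 103 and 89.0 CPM with WGP.

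Of 8 genes of conventional dendritic cells Cd209a, the most abundant, fell from 106 ± 28.3 to 41.5 ± 15.4 CPM (log2 fold change -1.35, adjusted p = 0.00854 in edgeR) and was not called with the covariate, and the summed level was 268, 266 and 268 CPM with PBS and 218, 116 and 211 CPM with WGP. The 8 dendritic cell genes had 2 positive and 6 negative log2 fold changes. The positive ones were Clec9a (1.28), with all WGP libraries above all PBS libraries, and Zbtb46 (0.14), neither of them called. All 11 acinar genes fell. Clps had a log2 fold change of -3.28 (adjusted p = 3.21e-05 in edgeR) and the most abundant, Pnlip, one of -3.04 (adjusted p = 0.00371 in edgeR). Cela3b and Cpa1 were at -3.05 and -2.91 (adjusted p = 0.000557 and 0.00179 in edgeR). Without PBS replicate 2, the highest in these genes, Pnlip was at -2.16 and Cpa1 at -2.17.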
